A study of Mus musculus with 10 samples.

Results

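The receptor chains through which myeloid cells sense colony-stimulating factors and several interleukins were followed in ARG1+ and ARG1− cells of the inflamed spinal cord. The members are the 10 rows of the count table named *Csf1r*, *Csf2ra*, *Csf2rb*, *Csf2rb2*, *Csf3r*, *Il3ra*, *Il6ra*, *Il2ra*, *Il2rg* and *Il10ra*, out of 55487 genes in all, and they were picked by gene name. All 10 passed the filter on low counts that left 13740 genes for testing, and *Il2ra* passed it only through the ARG1− libraries.

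The cells came from the spinal cords of 5 male Arg1tm1Lky mice on a C57BL/6 background, aged 8 to 12 weeks and called m2, m6, m234, m235 and m236. In these mice yellow fluorescent protein (YFP) is made under the control of *Arg1*, the gene of arginase 1. All animals had experimental autoimmune encephalomyelitis (EAE), a mouse model of multiple sclerosis, and were taken at peak disease, so no healthy tissue was compared. From each animal, viable cells with CD45 and CX3CR1 on the surface and without CD3 or Ly6G were sorted into 200000 YFP+ (ARG1+) and 100000 YFP− (ARG1−) cells, and each sort gave 1 library. The comparison asks how the transcriptome of cells with *Arg1* differs from that of cells without it, and it covers a mixed pool, since this sort does not separate monocyte-derived cells (Mdcs), microglia and macrophages of the central nervous system borders.

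Cytokine receptors of the type I and type II families have no enzyme of their own. A chain specific for 1 cytokine pairs with a shared signaling chain, and Janus kinases bound to the chains then activate STAT transcription factors. In this way CSF2RA, the α chain for granulocyte–macrophage colony-stimulating factor (GM-CSF), and IL3RA, the α chain for interleukin-3 (IL-3), both signal through the common β chain CSF2RB, and mice carry a second, very similar β chain gene, *Csf2rb2*, whose product serves IL-3. CSF1R differs in that it is itself a tyrosine kinase, and its signal keeps microglia and macrophages alive, while GM-CSF signaling in monocytes is known to be needed for EAE.

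Sequence limits how well some of these chains can be told apart by reads of 50 bases. *Csf2rb* (ENSMUSG00000071713, GRCm38 chr15:78325752-78353847, forward strand) and *Csf2rb2* (ENSMUSG00000071714, chr15:78282507-78305721, reverse strand) lie next to each other, and their coding sequences were 95.2% identical over 2628 aligned bases. Of all 50-base stretches, 17.2% of those of *Csf2rb* also occur in *Csf2rb2*, and 18.8% of those of *Csf2rb2* occur in *Csf2rb*. Their most different coding window of 60 bases, in exon 4 of both genes, shows what keeps their reads apart, with the 13 mismatches in capitals (chr15:78338893-78338952, forward strand, for *Csf2rb*; chr15:78294379-78294438, reverse strand, for *Csf2rb2*).
Csf2rb: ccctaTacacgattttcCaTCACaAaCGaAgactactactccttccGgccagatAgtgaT
Csf2rb2: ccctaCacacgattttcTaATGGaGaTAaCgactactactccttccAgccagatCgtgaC
Their longest identical coding run, of 242 bases in exon 14 of both genes, shows where no read of this length can be assigned to 1 of them (chr15:78348577-78348818 of *Csf2rb*, forward strand; chr15:78284630-78284871 of *Csf2rb2*, reverse strand).
Csf2rb and Csf2rb2: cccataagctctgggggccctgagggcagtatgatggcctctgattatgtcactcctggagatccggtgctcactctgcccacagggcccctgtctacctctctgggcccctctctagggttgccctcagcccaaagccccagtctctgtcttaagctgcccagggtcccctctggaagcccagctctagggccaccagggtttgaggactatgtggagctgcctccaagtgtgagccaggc
For this reason the values of both chains are given as counted and also summed.

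The other members had less shared sequence or a partner with few counts. *Csf2ra* (ENSMUSG00000059326, chr19:61223957-61228429), *Il3ra* (ENSMUSG00000068758, chr14:14346275-14356011) and *Il10ra* (ENSMUSG00000032089, chr9:45253837-45269149) shared 0% of their 50-base stretches with another gene. *Csf1r* (ENSMUSG00000024621, chr18:61100598-61132149) shared 17.0% with *Hmgxb3* on the opposite strand, a gene at 37.9 to 45.8 CPM in every library (CPM, read counts brought to 1 library size by the TMM method). No source used here says that strand entered the counting, so reads of the overlap may not be told apart. *Il2rg* (ENSMUSG00000031304, chrX:101264378-101268255) shared 42.0% with the overlapping *Gm20489*, which had 0 counts in all 10 libraries, and the counting mode leaves out reads that fall on both genes. *Csf3r* (ENSMUSG00000028859, chr4:126024550-126044440) shared 9.41% with the pseudogene that the table calls *Csf1r-ps*, whose 146 to 402 counts per library were 5.91% to 7.31% of those of *Csf3r*. Of *Il6ra* (ENSMUSG00000027947, chr3:89864059-89913196) 2.29% and of *Il2ra* (ENSMUSG00000026770, chr2:11642807-11693193) 1.94% of the stretches were shared.

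*Arg1* had 588 to 1049 CPM in ARG1+ and 14.3 to 27.0 CPM in ARG1− libraries, as sorted. The gate genes *Cx3cr1* (means of 140 and 282 CPM) and *Ptprc*, which codes for CD45 (623 and 728 CPM), were present in both groups, and *Cd3e* and *Ly6g* had means under 1 CPM. The total counts ranged from 8396863 to 35455643, and the ARG1− library of m234 stood apart, with the lowest total and with 3212 CPM summed over 8 microglia markers, against 847 to 1576 CPM in the other ARG1− libraries and 772 to 1190 CPM in the ARG1+ libraries. The spread between libraries is that between animals, and both libraries of an animal were compared within it where that changed a call. In bulk RNA, fewer cells of a type and less RNA per cell cannot be told apart.

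The level of each chain was set per kilobase of exon (RPKM), the only scale used here to compare genes with each other. *Csf1r* was the highest in both groups, at 439 ± 45.1 RPKM (SD, n = 5) in ARG1+ and 504 ± 88.8 RPKM in ARG1− cells, above 99.1% and 99.2% of the tested genes. *Csf2ra* followed at 247 ± 19.0 and 307 ± 20.7 RPKM, and its libraries did not reach those of *Csf1r*. *Csf2rb*, at 159 ± 9.80 and 163 ± 16.5 RPKM, and *Csf2rb2*, at 151 ± 8.0 and 141 ± 15.2 RPKM, had overlapping ranges in both groups, though *Csf2rb* was the higher in each of the 10 libraries. Both lay below *Csf2ra* in every library.

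The next level was that of *Il2rg*, the γ chain shared by the receptors for interleukin-2 and several related cytokines, at 78.4 ± 2.62 RPKM in ARG1+ and 77.8 ± 11.5 RPKM in ARG1− cells. *Il10ra*, the ligand-binding chain for the anti-inflammatory cytokine interleukin-10 (IL-10), and *Csf3r*, the receptor for granulocyte colony-stimulating factor, overlapped in both groups, at 33.5 ± 6.24 and 53.9 ± 16.5 RPKM for *Il10ra* and 41.2 ± 7.56 and 52.4 ± 12.8 RPKM for *Csf3r*, which was the higher in every ARG1+ library. In ARG1− cells the ranges of *Il2rg*, *Il10ra* and *Csf3r* all overlapped. The length used for *Il2rg* includes the part shared with *Gm20489*, whose reads are left out of the counts, so its RPKM may be too low. *Il3ra* and *Il6ra*, which binds interleukin-6 (IL-6), overlapped in ARG1− cells at 22.2 ± 2.35 and 19.3 ± 2.02 RPKM. In ARG1+ cells *Il3ra*, at 27.4 ± 2.01 RPKM, lay above *Il6ra*, at 14.8 ± 0.912 RPKM, in every library. *Il2ra*, the α chain that gives the interleukin-2 receptor its high affinity, was at 0.0685 ± 0.0287 RPKM in ARG1+ and 0.619 ± 0.310 RPKM in ARG1− cells, below every library of every other chain.

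**Figure D1:**
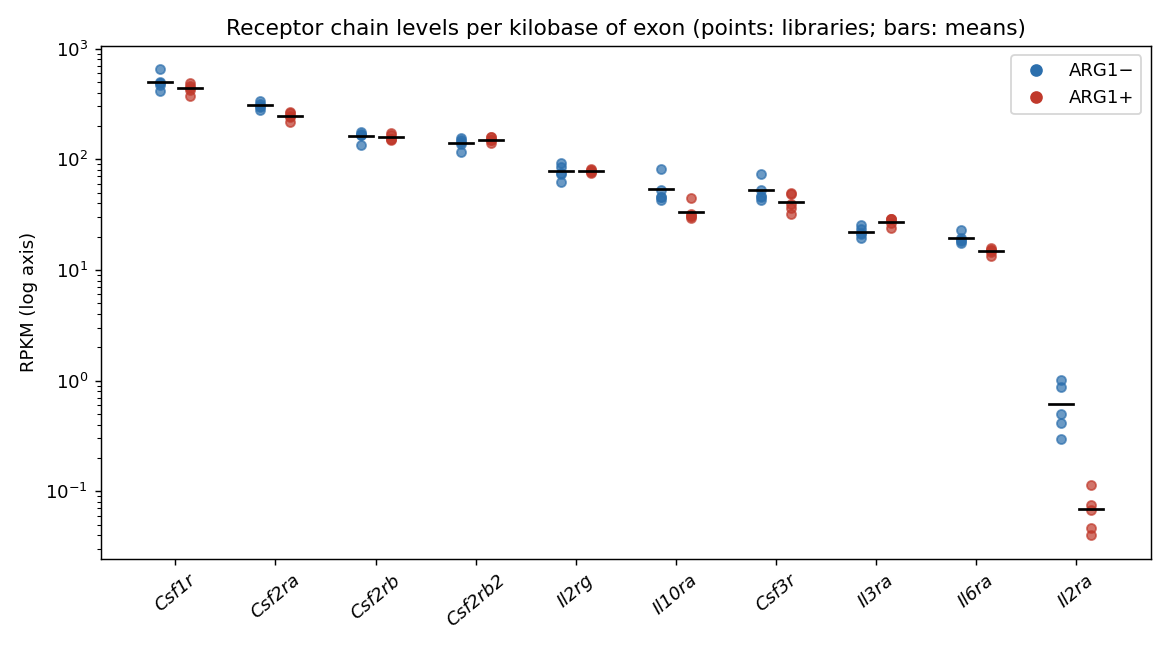
Levels of the 10 receptor chains as RPKM on a log axis, with 1 point per library (ARG1− in blue, ARG1+ in red, 5 each) and a bar at the mean. *Csf1r* lies highest, at means of 439 and 504 RPKM, and *Il2ra* lies lowest, with means under 1 RPKM.

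Of the 10 chains, 4 were lower in ARG1+ cells (*Il2ra*, *Il10ra*, *Il6ra* and *Csf2ra*), 1 was higher (*Il3ra*), and 5 did not pass the test (*Csf1r*, *Csf2rb*, *Csf2rb2*, *Csf3r* and *Il2rg*), by edgeR's quasi-likelihood test at a false discovery rate (FDR) under 0.05 over all tested genes. Of all tested genes, 6.15% were called lower and 6.82% higher. The median log2 fold change was −0.26 over the 10 chains and −0.0022 over all tested genes. With the animal as a block in the same test, *Csf1r* and *Csf3r* also passed, so that 6 were lower and 1 was higher, where 18.3% of all tested genes were called lower and 16.8% higher. In 7 of the 10 chains, the 5 animals all differed in the same direction. The share of all tested genes that did so was not counted, so this only describes the chains. Only *Il2ra* also passed the limit of an absolute log2 fold change above 1 that the methods use, and 0.888% of all tested genes were lower past both limits.

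**Figure D2:**
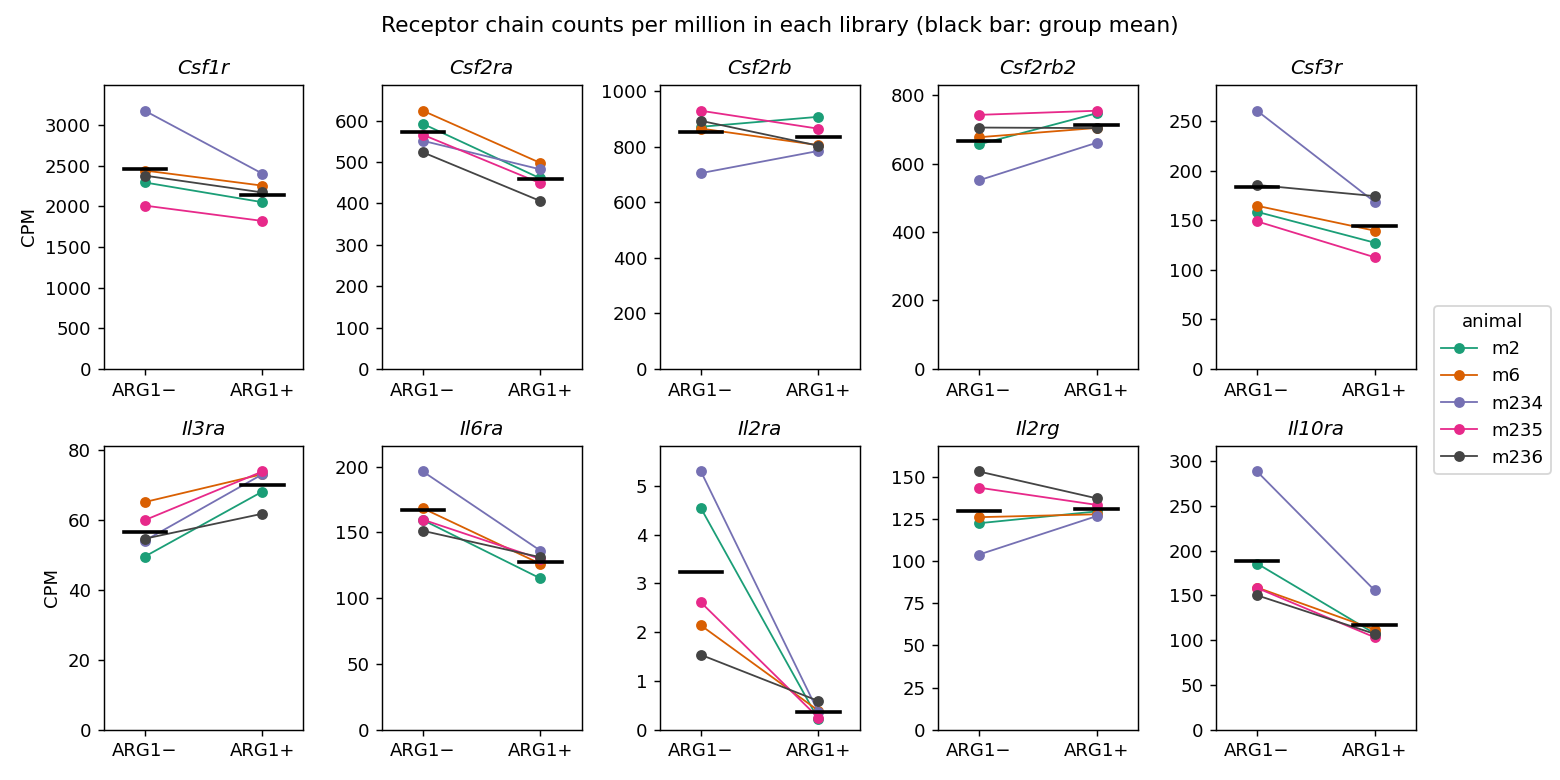
CPM of each receptor chain in the ARG1− and ARG1+ library of each animal, with a line per animal and a black bar at the group mean; each panel has its own axis from 0. *Csf1r*, *Csf2ra*, *Csf3r*, *Il6ra*, *Il2ra* and *Il10ra* fell in all 5 animals, and *Il3ra* rose in all 5. Animal m234 (purple) has the highest ARG1− value of *Csf1r*, *Csf3r*, *Il10ra*, *Il6ra* and *Il2ra*.

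Among the chains for GM-CSF and IL-3, both α chains moved and moved in opposite directions, whereas neither β chain passed the test. *Csf2ra* had 460, 498, 482, 449 and 406 CPM in the ARG1+ libraries of m2, m6, m234, m235 and m236, and 592, 624, 551, 566 and 524 CPM in their ARG1− libraries. The groups did not overlap, as they also did not, with the ARG1+ cells lower, for *Il6ra* and *Il2ra* and for 5.2% of all tested genes. *Csf2ra* fell by 0.32 on the log2 scale (SE 0.0697, adjusted p = 0.0131, edgeR), from a mean of 572 ± 38.5 to 459 ± 35.3 CPM (SD, n = 5). The differences within animals ran from −0.37 to −0.19.

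*Il3ra* had 68.0, 73.0, 73.0, 73.8 and 61.7 CPM in the ARG1+ libraries and 49.5, 65.0, 54.0, 59.9 and 54.6 CPM in the ARG1− libraries. The groups overlapped through the ARG1+ library of m236 and the ARG1− library of m6, but each animal was higher in its ARG1+ library. *Il3ra* rose by a log2 fold change of 0.30 (SE 0.0780, adjusted p = 0.0263, edgeR), and with the animal block the adjusted p was 0.00146. The call was lost in 5 of the 10 fits that left out 1 library, with adjusted p of 0.0507 to 0.0639 (edgeR). These fits were without the ARG1+ libraries of m2, m6 and m235 and the ARG1− libraries of m2 and m236. Over all 10 fits the log2 fold change ran from 0.26 to 0.36.

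*Csf2rb* had 907, 805, 784, 864 and 803 CPM in ARG1+ and 871, 865, 704, 929 and 892 CPM in ARG1− libraries. The ranges overlapped almost fully, and the log2 fold change was −0.03 (SE 0.0788, adjusted p = 0.812, edgeR). Leaving out the ARG1− library of m234, the lowest of all, moved it to −0.09 (adjusted p = 0.347, edgeR). *Csf2rb2* had 747, 704, 661, 754 and 704 CPM in ARG1+ and 656, 677, 551, 742 and 705 CPM in ARG1− libraries. It was higher in 4 of 5 animals, with a log2 fold change of 0.10 (SE 0.0790, adjusted p = 0.429, edgeR), and of 0.04 (adjusted p = 0.706, edgeR) without the ARG1− library of m234. With the counts of both β chains summed, the log2 fold change was 0.03 (SE 0.0804, adjusted p = 0.86, edgeR), and 0.667 was the adjusted p with the animal block.

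Promoters of the α chains are shown because these genes of 1 receptor family moved in opposite directions. The windows are the 300 bases around the start of the gene in RefSeq for GRCm38.p6. The search reported here covers the windows of 7 of the 10 members. The other windows were not available or are not reported here. The 7 letters AGGAAGT hold GGAA, the core of sites for ETS factors such as SPI1 (PU.1), a master regulator of myeloid receptor genes. They were searched on both strands and are in capitals. They were chosen with the promoters in view.
Csf2ra (chr19:61228369-61228668, reverse strand): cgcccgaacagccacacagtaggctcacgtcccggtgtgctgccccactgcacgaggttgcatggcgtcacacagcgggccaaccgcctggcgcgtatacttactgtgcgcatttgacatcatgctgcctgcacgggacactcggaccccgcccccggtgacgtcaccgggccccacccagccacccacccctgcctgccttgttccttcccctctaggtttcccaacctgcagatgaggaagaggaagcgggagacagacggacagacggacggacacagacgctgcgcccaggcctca
Il3ra (chr14:14346245-14346544, forward strand): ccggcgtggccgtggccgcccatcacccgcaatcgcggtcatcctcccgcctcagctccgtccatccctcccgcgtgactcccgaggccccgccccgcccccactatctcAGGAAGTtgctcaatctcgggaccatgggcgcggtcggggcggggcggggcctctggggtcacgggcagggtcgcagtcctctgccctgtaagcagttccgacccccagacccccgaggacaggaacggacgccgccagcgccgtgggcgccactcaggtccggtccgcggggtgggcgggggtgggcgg
The letters occur once in the window of *Il3ra* and not in that of *Csf2ra*. The same letters without the last T, AGGAAG, are found in both windows, as is the shorter GGAA. The 7 letters were found in 4 of the 7 windows (*Il3ra*, *Il6ra*, *Il2ra* and *Csf2rb2*), beside 9.35% of 32851 promoters of the same length. As they were chosen with these windows in view, this comparison is not a test. The match is a description of the letters and says nothing about binding in these cells.

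*Csf1r*, the receptor for macrophage colony-stimulating factor and interleukin-34, had 2053, 2257, 2405, 1822 and 2173 CPM in ARG1+ and 2296, 2443, 3179, 2011 and 2380 CPM in ARG1− libraries. The groups overlapped, yet every animal was lower in its ARG1+ library, by 0.11 to 0.40 on the log2 scale. The log2 fold change was −0.20 (SE 0.117, adjusted p = 0.272, edgeR) without the block and −0.19 (SE 0.0502, adjusted p = 0.0153, edgeR) with the animal block. The highest value and the largest difference belonged to m234, and without its ARG1− library the log2 fold change was −0.09 (adjusted p = 0.556, edgeR). With the block and without both libraries of m234 it was −0.14 (adjusted p = 0.0112, edgeR).

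*Csf3r*, best known from neutrophils, had 127, 140, 169, 113 and 174 CPM in ARG1+ and 159, 165, 260, 149 and 186 CPM in ARG1− libraries. Here too the groups overlapped while all 5 animals were lower in ARG1+ cells. The log2 fold change was −0.34 (SE 0.160, adjusted p = 0.175, edgeR), and −0.33 (SE 0.0646, adjusted p = 0.00329, edgeR) with the animal block. Without the ARG1− library of m234 it was −0.18 (adjusted p = 0.35, edgeR), and with the block and without m234 it was −0.26 (adjusted p = 0.000545, edgeR). The neutrophil marker *Ly6g*, whose product was gated out, had a mean of 0.0566 CPM in ARG1+ and 0.0285 CPM in ARG1− libraries. The 9 neutrophil markers summed to 131 to 322 CPM in ARG1+ and 65.8 to 186 CPM in ARG1− libraries, most of it *Mmp8*, and 5 of the 9 were under 1 CPM in every library. *S100a9*, which passed the filter only through ARG1− libraries, was lower in ARG1+ cells, with means of 0.242 and 2.44 CPM (log2 fold change −3.40, adjusted p = 0.00977, edgeR). *Cxcr2*, which was not tested, had a mean of 0.141 CPM against 0.828 CPM in ARG1− cells, and neither gene's groups overlapped. With the block *Mmp8* and *S100a8* were higher.

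Beside both chains stood the microglia markers. All 8 were tested, and 0 of the 8 passed without the block by edgeR, DESeq2 or limma-trend, with 4 at an unadjusted p under 0.05 in edgeR, while 6 of 8 were lower in ARG1+ cells with the block. The sum of these 8 markers in the ARG1− library of m234 was the highest, as were *Csf1r*, *Csf3r*, *Il10ra*, *Il6ra* and *Il2ra* in that library. The part of microglia in these differences was not tested. *Hps4*, *Rasgrp3* and *Rnf166* were the 3 genes whose log2 CPM followed *Csf1r* most closely over the 10 libraries (Pearson's r of 0.983, 0.981 and 0.979), and *Gm20147*, *Gda* and *Pa2g4* did so for *Csf2rb* (0.977, 0.967 and 0.961). These 10 libraries share animals, so the correlations are descriptions only. Over the 9 libraries without the ARG1− library of m234 they were 0.966, 0.949 and 0.944 for *Hps4*, *Rasgrp3* and *Rnf166*, and 0.950, 0.926 and 0.913 for *Gm20147*, *Gda* and *Pa2g4*. Among the chains, *Csf1r* and *Csf3r* had an r of 0.921 (0.812 without that library), and *Csf1r* and *Csf2rb2* an r of −0.95 (−0.85 without it).

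The α chains for IL-6 and IL-10, which are known as a signal for acute inflammation and as a brake on macrophages, both fell in ARG1+ cells. *Il6ra* had 115, 126, 136, 130 and 131 CPM in ARG1+ and 159, 168, 196, 160 and 151 CPM in ARG1− libraries. The groups did not overlap, and *Il6ra* fell by 0.39 on the log2 scale (SE 0.0736, adjusted p = 0.0064, edgeR). It passed the test in every fit that left out a library or an animal.

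*Il10ra* had 108, 112, 156, 103 and 107 CPM in ARG1+ and 186, 159, 289, 158 and 150 CPM in ARG1− libraries. In both groups m234 was far above the other animals, and its ARG1+ library overlapped the ARG1− library of m236. *Il10ra* fell by 0.68 on the log2 scale (SE 0.178, adjusted p = 0.0283, edgeR), and by 0.66 (SE 0.0589, adjusted p = 3.36e-05, edgeR) with the animal block. All 5 animals were lower in ARG1+ cells, by 0.49 to 0.89. Without the ARG1− library of m234 the log2 fold change was −0.48 (adjusted p = 0.0248, edgeR). The call without the block was lost in 5 of the 10 fits that left out 1 library, namely the ARG1+ libraries of m2, m6, m235 and m236 and the ARG1− library of m2, with adjusted p of 0.0543 to 0.0704.

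The chains of the interleukin-2 receptor split. *Il2ra* had only 6, 12, 11, 8 and 18 counts in the ARG1+ libraries and 144, 77, 45, 73 and 46 counts in the ARG1− libraries, which gave 0.209, 0.389, 0.355, 0.243 and 0.588 CPM against 4.54, 2.14, 5.30, 2.61 and 1.54 CPM. The groups did not overlap, and *Il2ra* fell by 3.10 on the log2 scale (SE 0.395, adjusted p = 0.000751, edgeR). As no ARG1+ library reached 1 CPM, the gene entered the test only by its level in ARG1− cells. *Il2rg* had 130, 128, 127, 133 and 137 CPM in ARG1+ and 123, 126, 104, 144 and 153 CPM in ARG1− libraries. It was higher in 3 animals and lower in 2, and its log2 fold change was 0.01 (SE 0.0885, adjusted p = 0.962, edgeR), with a sign that turned without the ARG1− library of m234 (−0.06). The β chain *Il2rb* was near 1 CPM in both groups and did not pass (−0.59, SE 0.402, adjusted p = 0.35, edgeR).

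*Il2ra* is a gene of activated T cells and of some dendritic cells (DCs). The 8 T cell markers summed to 1.61 to 2.78 CPM in ARG1+ and 1.11 to 3.47 CPM in ARG1− libraries, and 7 of the 8 were under 1 CPM in every library. The 8 DC markers summed to 12.02 to 26.3 CPM in ARG1+ and 22.5 to 49.9 CPM in ARG1− libraries. *Flt3*, *Ccr7* and *Zbtb46* were lower in ARG1+ cells, as 3 of the 5 tested DC markers, and *Fscn1* was lower with the block. *Clec9a*, the DC marker with the highest mean in both groups (13.9 CPM in ARG1+ and 11.8 CPM in ARG1− libraries), went the other way. It was higher in 4 of 5 animals and did not pass (log2 fold change 0.28, adjusted p = 0.547, edgeR). *Flt3* and *Zbtb46* were under 1 CPM in all ARG1+ libraries and passed the filter only through the ARG1− libraries. No DC marker was at 0 in all libraries, and 2 of the 8 were under 1 CPM throughout. The highest DC sums, 37.7 and 49.9 CPM, were those of the ARG1− libraries of m2 and m234, which also had the highest *Il2ra*. The part of DCs in the difference was not tested.

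**Figure D3:**
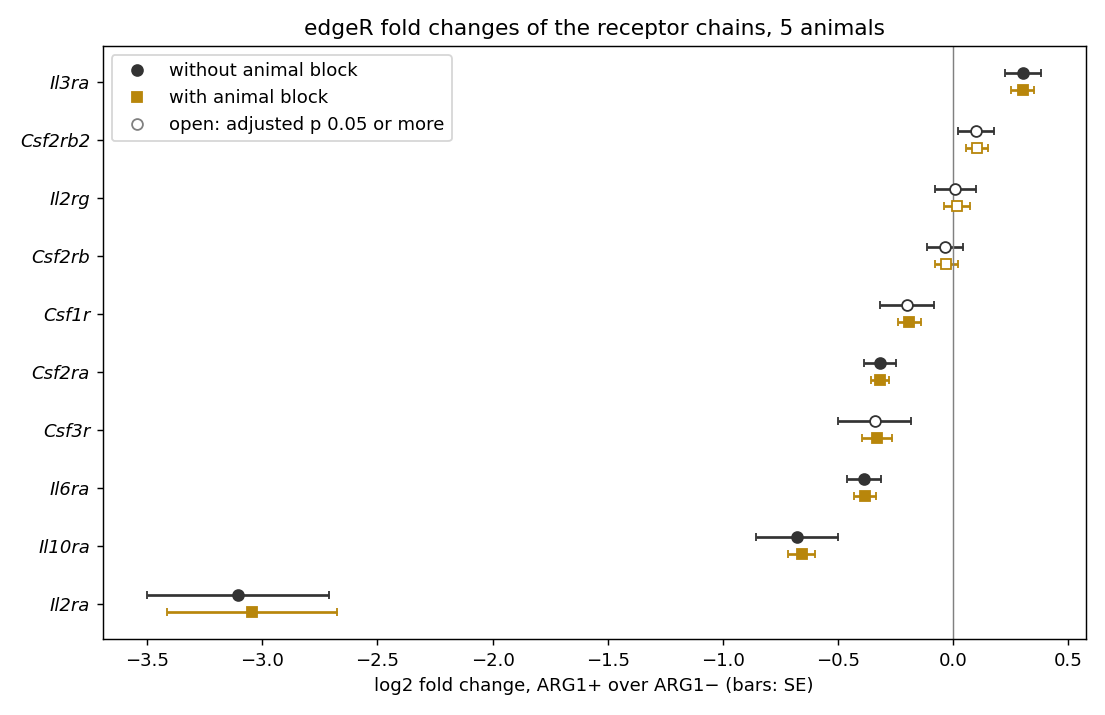
Log2 fold change of each chain, ARG1+ over ARG1− (points), with its standard error (bars), from edgeR without the animal block (black circles) and with it (yellow squares); filled symbols have an adjusted p under 0.05. The block moves the estimates little and narrows the error of every chain, and *Csf1r* and *Csf3r* pass only with it.

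How the chains stand to each other within a library was followed by 6 ratios of read counts, each compared between the groups by a 2-sided exact permutation test over the 10 libraries, adjusted over the 6. The smallest p that 5 against 5 libraries allow is 0.00794. As ratios within a library they do not depend on the library size. They are ratios of reads and not of molecules, since the genes differ in length.

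The ratio of *Csf2rb2* to *Csf2rb* was 0.824, 0.875, 0.843, 0.873 and 0.877 in the ARG1+ libraries and 0.753, 0.783, 0.782, 0.799 and 0.790 in the ARG1− libraries. The groups did not overlap and the ratio was higher in 5 of 5 animals, by 0.13 on the log2 scale (exact p = 0.00794, adjusted p = 0.0238). How reads of the shared stretches printed above entered the counts is not known here, and the effect of these stretches on the ratio was not tested. *Csf2rb* to *Csf2ra*, the β to the α chain for GM-CSF, was 1.97, 1.62, 1.63, 1.93 and 1.98 in ARG1+ and 1.47, 1.39, 1.28, 1.64 and 1.71 in ARG1− libraries. It too was higher in 5 of 5 animals, by 0.29 on the log2 scale, but the groups overlapped and the adjusted p was 0.0714 (exact permutation test).

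The GM-CSF chains against *Csf1r* did not separate the groups. *Csf2rb* to *Csf1r* ran from 0.326 to 0.474 in ARG1+ and from 0.222 to 0.462 in ARG1− libraries (log2 difference 0.16, exact adjusted p = 0.524). *Csf2ra* to *Csf1r* ran from 0.187 to 0.246 in ARG1+ and from 0.174 to 0.282 in ARG1− libraries (log2 difference −0.13, exact adjusted p = 0.476). Without the ARG1− library of m234 the differences were −0.0025 and −0.24 (exact adjusted p = 0.968 and 0.0952). In both, the ARG1− library of m234 was the lowest.

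*Il6ra* to *Il6st*, which codes for the shared signal chain gp130, was 1.49, 1.63, 1.66, 1.65 and 1.49 in ARG1+ and 1.91, 2.01, 1.93, 1.97 and 1.67 in ARG1− libraries. The groups did not overlap, and the ratio was lower in 5 of 5 animals, by 0.26 on the log2 scale (exact adjusted p = 0.0238). *Il10ra* to *Il10rb*, its signaling partner, was 0.977, 1.05, 1.48, 0.887 and 0.933 in ARG1+ and 1.99, 1.62, 2.89, 1.46 and 1.45 in ARG1− libraries. It was lower in 5 of 5 animals, by 0.80 on the log2 scale (exact adjusted p = 0.0476), with an overlap through the ARG1+ library of m234. This call was lost in 9 of the 10 sets that left out 1 library, all but the one without the ARG1+ library of m234. With 5 against 4 libraries the smallest p that the exact permutation test allows is higher, at 0.0159. The log2 difference in these sets ran from −0.92 to −0.63.

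**Figure D4:**
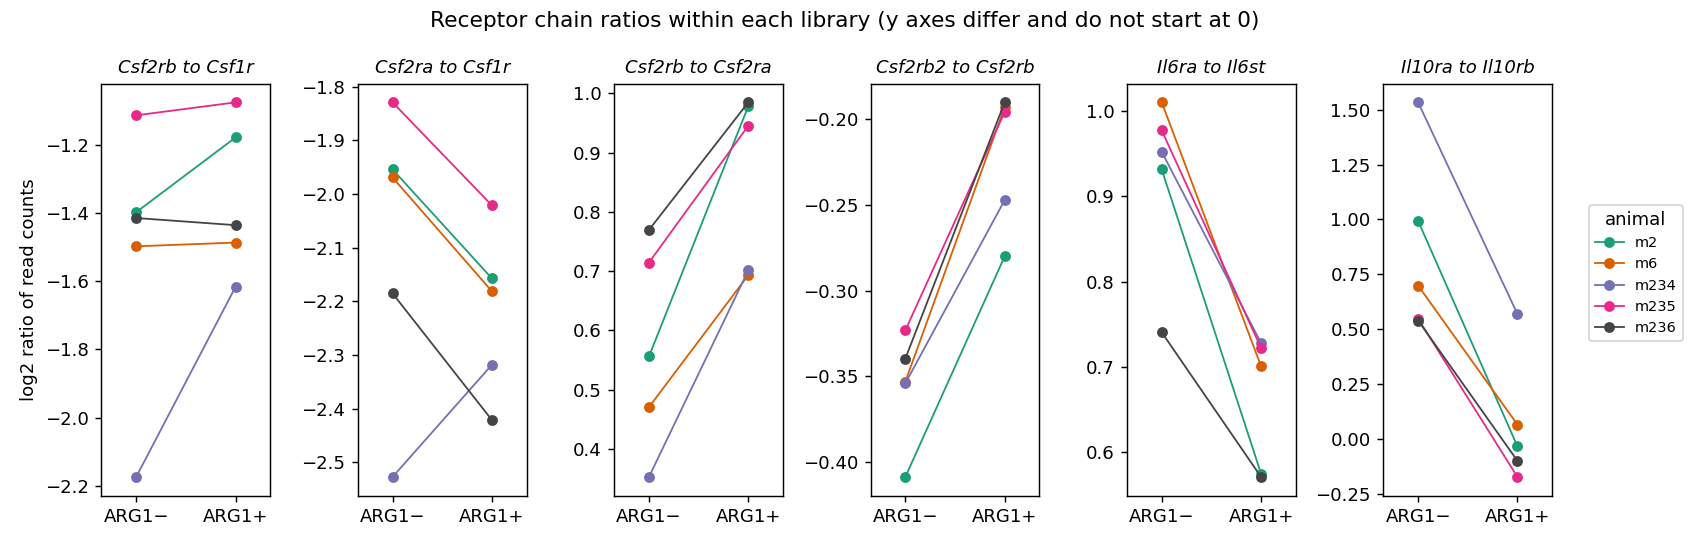
Log2 ratio of the read counts of 2 chains in the ARG1− and ARG1+ library of each animal, with a line per animal; the y axes differ and do not start at 0. *Csf2rb2* to *Csf2rb* is higher and *Il6ra* to *Il6st* lower in ARG1+ cells without overlap, and the ratios to *Csf1r* overlap.

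Few of the ligand genes were seen. Of 9 ligand genes, 3 were tested and 0 passed by edgeR, DESeq2 or limma-trend, with 2 of the 3 at an unadjusted p under 0.05, and *Il3* and *Il5* had 0 counts in all libraries. *Csf2*, which codes for GM-CSF, was at most 0.0695 CPM in any library. *Csf1* had the most reads, at 55.3 to 80.9 CPM in ARG1+ and 56.8 to 185 CPM in ARG1− libraries, with the highest value again in m234 (log2 fold change −0.59, SE 0.261, adjusted p = 0.152, edgeR). Without that library the log2 fold change was −0.28 (adjusted p = 0.307, edgeR). *Il6* was at 20.7 CPM on average in ARG1+ and 10.6 CPM in ARG1− cells and was higher in 5 of 5 animals (log2 fold change 0.95, SE 0.330, adjusted p = 0.0776, edgeR), and with the animal block it passed (adjusted p = 0.000142, edgeR). *Il10* likewise passed only with the block (log2 fold change 0.47, adjusted p = 0.0457, edgeR).

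Of 16 further cytokine receptor chains, 11 were tested, 2 were higher, 1 was lower and 8 did not pass, and with the animal block 3 were higher and 4 were lower. *Il7r*, the α chain for interleukin-7, had 201, 200, 234.3, 332 and 181 CPM in ARG1+ and 104, 119, 99.0, 177 and 117 CPM in ARG1− libraries. The groups did not overlap (log2 fold change 0.90, SE 0.186, adjusted p = 0.00961, edgeR). *Il11ra1*, for interleukin-11, rose by a log2 fold change of 0.39 (adjusted p = 0.028, edgeR) and *Il21r*, for interleukin-21, fell by 0.44 (adjusted p = 0.0313, edgeR). The chain with the most reads, *Il4ra*, had a log2 fold change of −0.14 (adjusted p = 0.22, edgeR) and passed with the animal block (adjusted p = 0.014). With the block *Il10rb* was also higher (log2 fold change 0.14, adjusted p = 0.0129, edgeR), and *Lifr* and *Il13ra1* were lower (−0.29 and −0.13, adjusted p = 0.00322 and 0.0331, edgeR). *Il7r*, *Il21r* and *Il4ra* all code for chains that signal with the γ chain of *Il2rg*. Of the 4 receptor tyrosine kinases related to CSF1R, the 2 tested were both lower: *Kit*, for stem cell factor, from 11.8 to 3.51 CPM (log2 fold change −1.74, adjusted p = 0.000349, edgeR), and *Flt3*, for the DC growth factor FLT3L, from 3.63 to 0.289 CPM (log2 fold change −3.59, adjusted p = 0.00024, edgeR), which like *Il2ra* reached 1 CPM in ARG1− libraries only.

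Among 13 genes of signal transduction below these receptors, 4 were lower, 0 were higher and 9 did not pass, and with the animal block *Jak3*, *Cbl* and *Grb2* were also lower. *Jak2*, the kinase bound to the common β chain, had 157, 155, 185, 169 and 154 CPM in ARG1+ and 261, 240, 253, 296 and 231 CPM in ARG1− libraries. It was lower without overlap, by 0.64 on the log2 scale (SE 0.0772, adjusted p = 0.000488, edgeR). *Stat3*, which acts below IL6RA and IL10RA and had the most reads of these genes, fell by 0.19 (adjusted p = 0.043, edgeR). *Ptpn6* and *Sh2b3*, which code for a phosphatase and an adaptor that dampen cytokine signals, fell by 0.20 and 0.26 (adjusted p = 0.0272 and 0.0363, edgeR). *Stat5a* and *Stat5b*, the STATs of the GM-CSF receptor, had log2 fold changes of 0.03 and 0.01 and did not pass (adjusted p = 0.835 and 0.943, edgeR).

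Of 8 feedback genes and targets of STATs, 0 passed by edgeR without the block, with 1 at an unadjusted p under 0.05, 1 (*Socs2*) was called by DESeq2 and 0 by limma-trend, while with the block *Socs2* was higher and *Bcl2l1* lower. The one with the most reads, the kinase gene *Pim1*, had a log2 fold change of −0.09 (adjusted p = 0.378, edgeR). Of 5 transcription factors known to drive myeloid receptor genes, 2 were lower, *Spi1* by 0.21 (adjusted p = 0.0226, edgeR) and *Runx1* by 0.28 (adjusted p = 0.024, edgeR), both without overlap of the groups, and 3 did not pass. With the animal block *Irf8* was lower too (log2 fold change −0.28, adjusted p = 0.000303, edgeR), in 5 of 5 animals. The one with the most reads, *Cebpb*, had a log2 fold change of −0.05 (adjusted p = 0.76, edgeR).

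**Figure D5:**
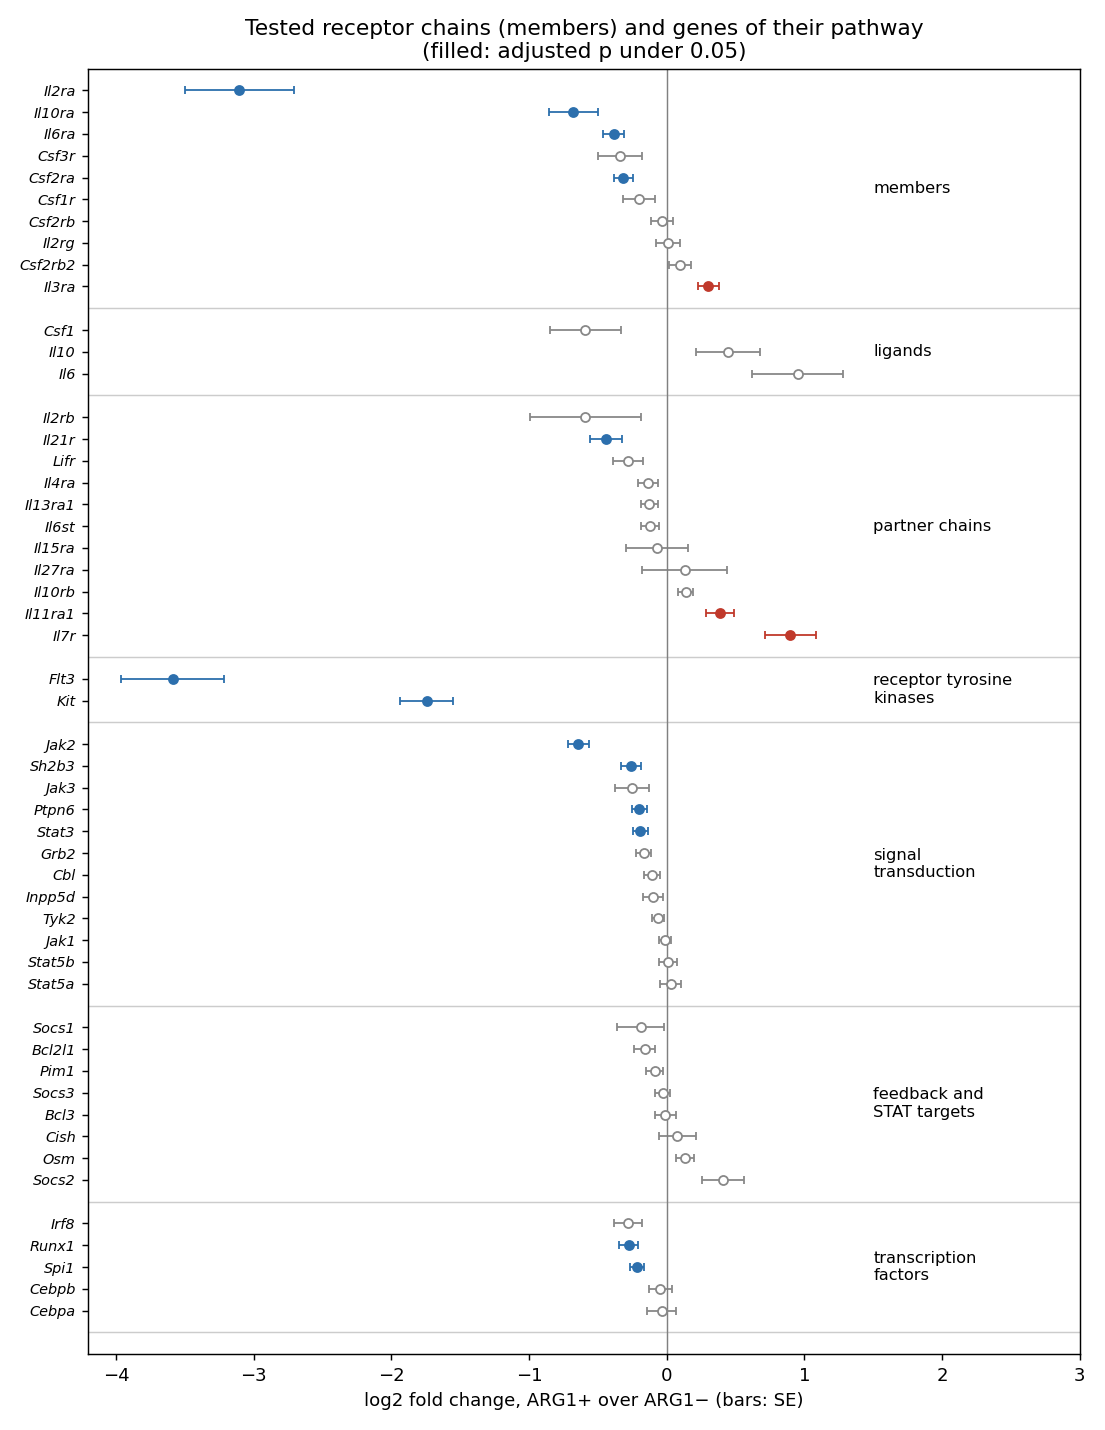
Log2 fold change (points) with its standard error (bars) of every tested receptor chain and of tested genes of each pathway list (1 gene of signal transduction is not shown), from edgeR without the animal block; filled points have an adjusted p under 0.05 (red higher, blue lower in ARG1+ cells). *Il2ra*, *Flt3* and *Kit* lie far below the others, and *Il7r* has the highest called value, at 0.90.

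Other cell types of the sort were read beside the receptor values. Of the 5 monocyte markers given here, *Ccr2*, *Plac8* and *Vcan* were lower in ARG1+ cells. *Ly6c2* (log2 fold change −0.45) and *Fn1* (0.46) did not pass without the block (adjusted p = 0.339 and 0.0776, edgeR), and with it *Ly6c2* was lower and *Fn1* higher. Of 4 tested markers of border macrophages 3 were higher (*Mrc1*, *Pf4* and *Ms4a7*) and *F13a1* was also higher with the block and by DESeq2, while 2 of the list of 7, *Cd163* and *Lyve1*, were under 1 CPM in every library. Of the 6 general macrophage markers, 3 were higher (*Cd68*, *Lyz2* and *Itgam*), and with the block *Adgre1* was also higher while *Cx3cr1* (log2 fold change −1.01 without the block) and *Ptprc* (−0.22) were lower. Of 3 tested markers of plasmacytoid dendritic cells 0 were called by edgeR (2 at an unadjusted p under 0.05) and by limma-trend. DESeq2 called 1, *Siglech*, and with the block in edgeR *Siglech* and *Bst2* were lower. The list of 6 had sums of 197 to 280 CPM in ARG1+ and 232 to 340 CPM in ARG1− libraries, which overlapped. Most of these sums came from *Bst2* and *Tcf4*, while *Ccr9* and *Klk1* were under 1 CPM in every library. *Siglech* was highest in the ARG1− library of m234, at 71.0 CPM, as was the sum of the microglia markers. Natural killer cell markers summed to at most 1.64 CPM, and 4 of the 5 markers of basophils and mast cells, cells that respond to IL-3, had 0 counts in all libraries while the fifth, *Gata2*, stayed under 1 CPM. Of the 5 markers of B and plasma cells, *Jchain* alone was tested and it was lower in ARG1+ cells, with sums of the list of 0.347 to 1.76 CPM in ARG1+ and 2.36 to 5.77 CPM in ARG1− libraries. The part of these cell types in the receptor values was not tested.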

How the data were processed

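Bulk RNA-seq of 10 libraries, 1 ARG1+ and 1 ARG1− from each of 5 animals, was analysed from the read counts as deposited, whole numbers per Ensembl gene without normalization. The authors aligned 50-base single-end reads of directional libraries to GRCm38 with STAR (2.7.10b in the submitters' processing notes, which also name Picard) and the basic Ensembl annotation, and counted them with summarizeOverlaps in Union mode. Whether strand entered the counting is not given in the sources.

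The 10 receptor chains and the gene lists were chosen with earlier results of these data known. The 13740 genes that exceeded 1 CPM in 3 or more libraries were tested with edgeR 4.0.16 (R 4.3.3), TMM library sizes and its quasi-likelihood test, and adjusted over all of them by Benjamini-Hochberg. The methods name limma-trend, which was an alternative (limma 3.58.1), as was DESeq2 1.42.0. From the other lists, the gene with the most reads and up to 6 called genes are named, and other genes named, such as markers and block-only calls, were chosen after their values were seen. Libraries are paired by animal: across genes, residuals correlated at 0.361 to 0.664 within an animal and at 0.0675 or less between animals. The main test had no block, and a fit with the animal as a replicate block is given where it changed a call of the genes reported. Values without the ARG1− library of m234 for *Csf1* and the correlations were chosen after seeing the data. Ratios used counts plus 0.5. Likeness used log2(CPM + 1). RPKM divided CPM by the union of exons in GENCODE M21 of the same build, which gave a length for 13725 of the tested genes. The fit was tested on simulated counts. Library totals were 8396863 to 35455643 counts. All columns of the table were used. The results of 1 marker list and of the signal transduction list are not reported here in full.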

Additional observations from a re-analysis of the deposited data

Results flagged for a closer look

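In 3 of the 20 groups of 5 libraries (10 chains, 2 groups each), the gap between the extreme library and its neighbor, divided by the range of the group, was above Dixon's 95% critical value of 0.71; chance alone would flag about 1 group in 20. All 3 libraries came from animal m234. *Il10ra* was high in its ARG1+ library, at 155.8 CPM (gap over range 0.837), and in its ARG1− library, at 288.6 CPM (0.743). *Csf2rb* was low in its ARG1− library, at 704.3 CPM (0.715). The ARG1− library of m234 also had the lowest total count and the highest sum of microglia markers, and the part of these in the values was not tested.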

How the results depend on the processing

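Over the alternatives, 218 of 252 log2 fold changes of the chains kept their direction and their side of the threshold. No other tool, library size or low-count filter changed a call of a chain, and *Il2ra* and *Il6ra* passed in every fit. The number lower was 4 with the other tools, scalings and filters and 6 with the replicate block, in edgeR and in limma-trend alike, and also, in a fit chosen after seeing the data, with the block and without both libraries of m234. Leaving out each library or both libraries of an animal, the number lower ran from 2 to 4 (2 without both libraries of m2) and the number higher from 0 to 1, as *Il3ra* was lost in 8 of these 15 fits. *Csf2ra* was lost only without both libraries of m2, and *Il10ra* in 9 of the 15. The block changed no call of a chain other than *Csf1r* and *Csf3r*. Values near 0 changed sign: *Csf2rb* was at 0.026 with the paralogs summed and ran from −0.093 to 0.0035 with libraries left out. *Il2rg* was at −0.031 on library totals alone and at −0.042 with the block and without m234, and ran from −0.056 to 0.075 with libraries left out. The cause was not tested.

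With libraries left out, the log2 difference of *Csf2rb* to *Csf1r* ran from −0.0025 to 0.26, that of *Csf2ra* to *Csf1r* from −0.24 to −0.06 and that of *Il10ra* to *Il10rb* from −0.92 to −0.63. Exact sign flips of the 5 paired differences, the replicate block of the ratios, cannot go below p = 0.0625, so that no ratio could pass: *Csf2rb2* to *Csf2rb* stayed at 0.13, *Il6ra* to *Il6st* at −0.26 and *Il10ra* to *Il10rb* at −0.80, each with an adjusted p of 0.0938. Over all tested genes, the calls rose from 937 to 2307 higher and from 845 to 2519 lower with the block. On library totals alone 701 were higher and 1282 lower. DESeq2 called 1276 higher and 1307 lower. *Il2ra* rested on few counts, 6 to 18 in an ARG1+ and 45 to 144 in an ARG1− library.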
